A study of Mus musculus with 13 samples.

Results

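Fibrillar and microfibrillar collagens were followed through 2 sets of bead arrays of mouse 4T1 mammary tumours. The set comprised 9 genes, chosen by name: Col1a1, Col1a2, Col3a1, Col5a1 and Col5a2 of the fibrils, Col6a1, Col6a2 and Col6a3 of the beaded microfibrils, and Col12a1, which sits on fibril surfaces. Of these, 7 had probes annotated to them on each of the 2 array platforms, 15 probes on one and 10 on the other, among 11057 and 9714 genes that were analysed. Col6a3 and Col12a1 were not analysed here.

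Collagens are the main structural proteins of connective tissue and, in tumours, are made chiefly by fibroblasts and other stromal cells. Type I collagen, a heterotrimer of the Col1a1 and Col1a2 chains, and type III collagen, a homotrimer of the Col3a1 chain, form the bulk of interstitial fibrils. Type V collagen, with chains from Col5a1 and Col5a2, nucleates fibrils and limits their width, and type VI collagen, built from the Col6a1, Col6a2 and Col6a3 chains, forms a beaded network between cells and fibrils. Pdgfrb, the receptor tyrosine kinase gene whose promoter drives the transgene of this model, is active in pericytes and also in fibroblasts.

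The tumours grew from the 4T1 line, a mouse mammary carcinoma, and every sample, controls included, came from mice injected with ganciclovir (GCV). In PDGFRb-TK mice the promoter of Pdgfrb drives a viral thymidine kinase, which turns GCV into a toxin for dividing cells that make it. On 1 platform there were 3 groups of 3 arrays. TK/anti-Ang2 stands for PDGFRb-TK hosts that received an anti-Ang2 antibody, against angiopoietin-2, TK/IgG for PDGFRb-TK hosts under control IgG, and WT/IgG for WT hosts under control IgG. On the other platform, 1 array each came from an early pericyte ablation, its control, a late pericyte ablation and its control. The labels give the pair controls the PDGFRb-TK genotype in one field and describe them as WT in another, and they mark the transgene positive for every sample, so the hosts of the pair controls are not settled. The labels do not say whether replicates were separate animals, so the spread behind each p-value may not be that between animals. In a bulk tumour sample, fewer cells of a type and less RNA per cell cannot be told apart.

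Values are background-corrected and quantile-normalised log2 probe signals, and each gene is represented by its brightest probe, so levels are compared between arrays and not between genes. The share of probes detected was 40.6 to 43.2% on the 9 arrays and, where it could be read, 42.6 to 48.9% on the 4 arrays, and the number of arrays limits the precision. A single array was unlike the rest: TK/anti-Ang2 replicate 2 had a median r of 0.931 to the others, against 0.968 to 0.977 for the remaining 8. Its mean log2 signal over 7 of 13 skin keratinocyte and hair markers was 12.56, against 6.29 to 10.05 on the other arrays. The collagen differences below are therefore given with and without it. Mammary epithelial markers, 7 of 8 measured, had means of 10.17 to 11.27 on all 9 arrays, with Epcam below the detection filter.

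The RefSeq sequence of 250 bases before the annotated start was printed for 3 of the measured genes, 1 each of types I, III and VI, to show the start regions of chains that form fibrils and of a chain of the beaded microfibrils. In GRCm38.p6 they lie at chr6:4505368-4505617 on the plus strand for Col1a2, chr1:45311288-45311537 on the plus strand for Col3a1 and chr10:76726045-76726294 on the minus strand for Col6a1, and each is written 5′ to 3′ along its gene. Capitals mark matches, searched on both strands, to the CCAAT box, to the core promoter element TATAAA and to the promoter element GGGCGG. No matches overlapped in these 3 windows.
Col1a2: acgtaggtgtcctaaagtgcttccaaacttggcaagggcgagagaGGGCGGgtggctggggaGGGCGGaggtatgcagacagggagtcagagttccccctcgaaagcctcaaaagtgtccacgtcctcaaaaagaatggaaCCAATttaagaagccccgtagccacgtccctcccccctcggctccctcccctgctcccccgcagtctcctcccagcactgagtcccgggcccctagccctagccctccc
Col3a1: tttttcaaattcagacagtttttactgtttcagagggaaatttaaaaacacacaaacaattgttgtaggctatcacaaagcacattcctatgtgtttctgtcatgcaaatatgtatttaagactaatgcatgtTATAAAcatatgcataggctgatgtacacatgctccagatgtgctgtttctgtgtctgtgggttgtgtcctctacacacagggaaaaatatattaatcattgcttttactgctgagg
Col6a1: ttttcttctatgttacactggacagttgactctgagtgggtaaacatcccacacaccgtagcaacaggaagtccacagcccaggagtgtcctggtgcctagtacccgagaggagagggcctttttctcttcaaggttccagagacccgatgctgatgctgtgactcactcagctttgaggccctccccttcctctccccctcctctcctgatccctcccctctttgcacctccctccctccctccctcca
The Col1a2 window held GGGCGG 205 and 188 bases and CCAAT 109 bases before the start, and the Col3a1 window held TATAAA 117 bases before it. The Col6a1 window held none of these letters. Over 32851 mouse promoters of the same length, 33.8% held CCAAT, 12.4% TATAAA and 32.7% GGGCGG. The collagens had 7 promoter windows from 6 genes, with 2 overlapping windows for Col6a2 and 1 window for Col6a3, which was not analysed here. Of these windows 1 held CCAAT, 1 held TATAAA and 4 held GGGCGG, both of Col6a2 among them. The GC content of the printed windows was 62% for Col1a2, 35.2% for Col3a1 and 56% for Col6a1. Col3a1 and Col5a2 are neighbours on chromosome 1 with 0 genes between them, and Col6a1 and Col6a2 lie on chromosome 10 with 0 protein-coding genes between them.

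Pdgfrb had log2 signals of 5.60, 6.49 and 5.93 in TK/anti-Ang2 tumours, 6.11, 5.64 and 6.23 in TK/IgG tumours, and 7.01, 6.93 and 7.33 in WT/IgG tumours. All 6 PDGFRb-TK arrays were below all 3 WT arrays, and the share of all genes separated so was not computed. Of all genes, 5.07% were lower without overlap in TK/IgG than in WT/IgG tumours. For TK/anti-Ang2 against WT/IgG tumours the share was 7.74%. The difference of TK/IgG minus WT/IgG was -1.10 ± 0.26 (SE) in limma's fit, with an adjusted p of 0.999 over all genes.

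Among the fibrillar chains, Col3a1 varied most over the 9 arrays. Col3a1 had log2 signals of 7.77, 10.16 and 7.29 in TK/anti-Ang2 tumours, 7.62, 7.48 and 8.19 in TK/IgG tumours, and 9.61, 8.79 and 9.30 in WT/IgG tumours. The TK/IgG arrays all lay below the WT/IgG arrays, while TK/anti-Ang2 replicate 2 was above every WT array and its 2 partners were below them. Col1a1, the major type I chain, had 8.76, 10.19 and 8.01 in TK/anti-Ang2 tumours, 9.39, 8.39 and 8.46 in TK/IgG tumours, and 10.35, 9.34 and 9.96 in WT/IgG tumours. TK/IgG replicate 1 reached just above the lowest WT array for this gene, so the groups overlapped. Col1a2, its partner chain, had 5.64, 6.67 and 5.67 in TK/anti-Ang2 tumours, 6.22, 4.96 and 5.78 in TK/IgG tumours, and 6.85, 6.23 and 6.45 in WT/IgG tumours. TK/IgG replicate 1 was just below the lowest WT array, and on TK/IgG replicate 2 the Col1a2 probe was not above background.

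The type V chains differed in how far apart the groups stood. Col5a2 had log2 signals of 6.22, 6.94 and 5.20 in TK/anti-Ang2 tumours, 6.38, 5.32 and 5.76 in TK/IgG tumours, and 6.98, 6.39 and 6.85 in WT/IgG tumours. The highest TK/IgG array was just below the lowest WT array. Col5a1 had 10.95, 11.71 and 10.78 in TK/anti-Ang2 tumours, 11.47, 11.03 and 10.71 in TK/IgG tumours, and 11.60, 11.25 and 11.01 in WT/IgG tumours. For Col5a1 all 3 groups overlapped.

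For the beaded microfibril chains the WT arrays were close together. Col6a1 had log2 signals of 11.11, 11.31 and 10.90 in TK/anti-Ang2 tumours, 11.46, 11.01 and 10.60 in TK/IgG tumours, and 11.55, 11.48 and 11.68 in WT/IgG tumours. Col6a2 had 7.62, 8.16 and 6.85 in TK/anti-Ang2 tumours, 7.91, 7.07 and 7.16 in TK/IgG tumours, and 8.51, 8.16 and 8.56 in WT/IgG tumours. Every PDGFRb-TK array was below every WT array for both genes, but by small margins. Col6a2 on TK/anti-Ang2 replicate 2 and Col6a1 on TK/IgG replicate 1 came close to the lowest WT array. The share of all genes separated in this way was not computed. Taken by group, 5.07% of all genes were lower without overlap in TK/IgG than in WT/IgG tumours, and 7.74% in TK/anti-Ang2 tumours.

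**Figure D1:**
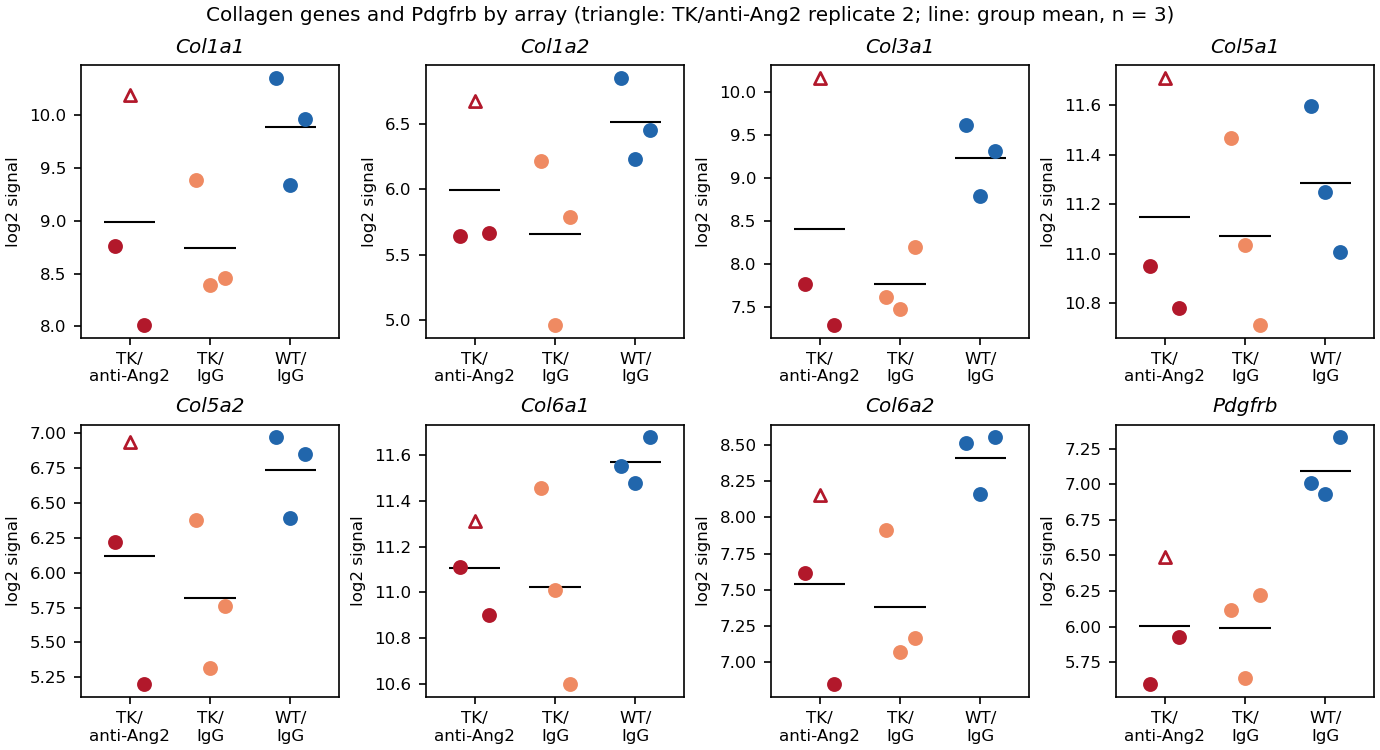
Log2 probe signal (y axis, a separate scale per panel) of 7 collagen genes and Pdgfrb on 9 arrays, by group (x axis), with 1 point per array, the triangle for TK/anti-Ang2 replicate 2 and the line for the group mean (n = 3). For Col3a1 the triangle stands at 10.16, above the WT/IgG arrays at 8.79 to 9.61, while the other 5 PDGFRb-TK arrays lie at 7.29 to 8.19.

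The first comparison asks what PDGFRb-TK hosts with GCV do to collagen signal under control IgG. All 7 genes had lower means in TK/IgG tumours than in WT/IgG tumours, but none passed the test at an adjusted p of 0.05, nor did any other gene (0% of 11057 called). Being lower was itself common, at 53.6% of all genes. The arrays of the 2 groups did not overlap for 5 of the 7, Col1a2, Col3a1, Col5a2, Col6a1 and Col6a2, against 5.07% of all genes lower without overlap. An unadjusted p under 0.05 was reached by 4 of the 7, Col1a2, Col3a1, Col6a1 and Col6a2, against 1.7% of all genes. The median difference of the 7 was -0.92 on the log2 scale, against -0.018 over all genes.

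Col3a1 averaged 7.76 ± 0.38 in TK/IgG tumours and 9.23 ± 0.42 in WT/IgG tumours (SD, n = 3 each), a log2 difference of -1.47 ± 0.64 (SE), or 2.77-fold lower (limma, adjusted p = 0.999). Col1a1 averaged 8.74 ± 0.56 in TK/IgG tumours and 9.89 ± 0.51 in WT/IgG tumours, a difference of -1.14 ± 0.53. Col6a2 averaged 7.38 ± 0.46 in TK/IgG tumours and 8.41 ± 0.22 in WT/IgG tumours, a difference of -1.03 ± 0.34. These 3 genes had the largest differences among the 7. Col5a2 differed by -0.92 ± 0.43, Col1a2 by -0.86 ± 0.37 and Col6a1 by -0.55 ± 0.22. Without TK/IgG replicate 2, where its probe was not above background, Col1a2 was at -0.51 ± 0.35, and without TK/IgG replicate 3 Col6a1 was at -0.33 ± 0.20. Col5a1, at -0.21 ± 0.29, was within 1 standard error of 0. Each of the 7 had an adjusted p of 0.999, and the 5 genes without overlap had the smallest two-sided exact permutation p that 3 against 3 arrays allow, 0.1.

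The spread of the third group entered these errors, because 1 fit covered all 9 arrays. Without TK/anti-Ang2 replicate 2 the difference of Col3a1 kept its value and its standard error was 0.27, with an adjusted p of 0.617 (limma). The residual SD of Col3a1 over all 9 arrays was 0.95 on the log2 scale, above that of 97.0% of genes. That of Col1a1 was 0.77 and that of Col6a1 was 0.28, against a median of 0.26 over all genes.

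Second probes of the same gene were compared where they passed the detection filter. In TK/IgG minus WT/IgG the other probe of Col3a1 gave -0.79 ± 0.47 (SE), that of Col5a2 gave -0.95 ± 0.26, and the 2 others of Col6a1 gave -0.62 ± 0.22 and -0.13 ± 0.24. The other probe of Col6a2 gave -0.14 ± 0.37, so the difference printed for Col6a2 rests on 1 of its 2 probes. The background correction set the size of the differences of dim genes: without correction the median of the 7 was -0.52, with all 7 still lower.

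The comparison of TK/anti-Ang2 with TK/IgG tumours addresses the antibody within PDGFRb-TK hosts. All 7 collagens had slightly higher means with the antibody, with a median difference of 0.24, and every gene's arrays overlapped. Being higher was found for 46.9% of all genes, and 0% of genes were called at an adjusted p of 0.05. An unadjusted p under 0.05 was reached by 0 of the 7, against 3.34% of all genes in either direction. Col3a1 averaged 8.41 ± 1.54 in TK/anti-Ang2 tumours and 7.76 ± 0.38 in TK/IgG tumours (SD, n = 3 each), a difference of 0.64 ± 0.64 (SE; limma, adjusted p = 0.992). The other 6 differences ranged from 0.08 for Col5a1 to 0.34 for Col1a2.

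For the brightest probes this direction rested on TK/anti-Ang2 replicate 2. Without that array the difference of Col3a1 was -0.23 ± 0.30 (SE) and the median of the 7 was -0.15, with 6 of 7 lower against 51.6% of all genes. Col1a1 then differed by -0.36, Col5a1 by -0.20, Col6a2 by -0.15, Col5a2 by -0.11 and Col6a1 by -0.02, while Col1a2 was at 0.0018. By other probes, also without that array, Col3a1 was at 0.26 ± 0.47 and the dimmest probe of Col6a1 at 0.26 ± 0.28. The remaining other probes of Col6a2, Col6a1 and Col5a2 were then at -0.64, -0.05 and -0.04. With all arrays the other probe of Col6a2 was at -0.28. On that array fibroblast markers, 13 of 14 measured, had a mean log2 signal of 10.14, against 8.26 and 8.59 on its partners. Adipocyte markers, 5 of 10 measured, had a mean of 9.70 there, against 4.84 to 8.24 on the other 8 arrays. Mast cell markers, 7 of 8 measured, had a mean of 9.68, against 5.59 to 7.37 on the others. The skin list lacked Krt1, Dsg1a, Krt25, Krt27 and Krt71, the adipocyte list Plin1, Fabp4, Retn and Pck1, and the mast cell list Ms4a2, all below the detection filter. The part of these cell types in the collagen signals was not tested.

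The third comparison sets TK/anti-Ang2 tumours against WT/IgG tumours, and shares arrays with both of the others. All 7 collagens had lower means in TK/anti-Ang2 tumours, with a median difference of -0.62, against 55.4% of all genes lower, and 0% of genes were called at an adjusted p of 0.05. The groups did not overlap for Col6a1 and Col6a2, 2 of 7 genes, against 7.74% of all genes. Col6a2 was the only gene of the 7 with an unadjusted p under 0.05, against 4.49% of all genes lower. It averaged 7.54 ± 0.66 in TK/anti-Ang2 tumours and 8.41 ± 0.22 in WT/IgG tumours (SD, n = 3 each), a difference of -0.87 ± 0.34 (SE; limma, adjusted p = 0.672). The differences of the others were -0.90 ± 0.53 for Col1a1, -0.83 ± 0.64 for Col3a1, -0.62 ± 0.43 for Col5a2, -0.52 ± 0.37 for Col1a2, -0.46 ± 0.22 for Col6a1 and -0.14 ± 0.29 for Col5a1.

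Without TK/anti-Ang2 replicate 2 the 2 remaining arrays were below all 3 WT arrays for all 7 genes, against 13.9% of all genes lower without overlap and 54.1% lower at all. The median difference was then -1.03. Col3a1 was at -1.71 ± 0.30 (SE) and Col1a1 at -1.50 ± 0.40, with adjusted p-values of 0.659 and 0.732 (limma). Col6a2 was at -1.18, Col5a2 at -1.03, Col1a2 at -0.85, Col6a1 at -0.56 and Col5a1 at -0.42. The dimmest probe of Col6a1, detected on 4 of 9 arrays, ran the other way, at 0.14 ± 0.24 with all arrays and 0.14 ± 0.28 without that one. The other probe of Col3a1 was at -0.53 ± 0.47 without TK/anti-Ang2 replicate 2. The remaining other probes were then at -0.99 for Col5a2, -0.78 for Col6a2 and -0.67 for Col6a1.

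Endothelial markers, all 12 measured, were lower in TK/anti-Ang2 than in WT/IgG tumours, with a median difference of -0.62, or -0.57 without TK/anti-Ang2 replicate 2, and 0 past the test. Their mean log2 signal was 7.11 to 7.18 on the TK/anti-Ang2 arrays, 7.62 to 8.02 on the TK/IgG arrays and 7.35 to 8.06 on the WT/IgG arrays. In TK/IgG minus WT/IgG 4 of the 12 were lower, with a median of 0.03. The part of endothelial cells in the collagen values was not tested.

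**Figure D2:**
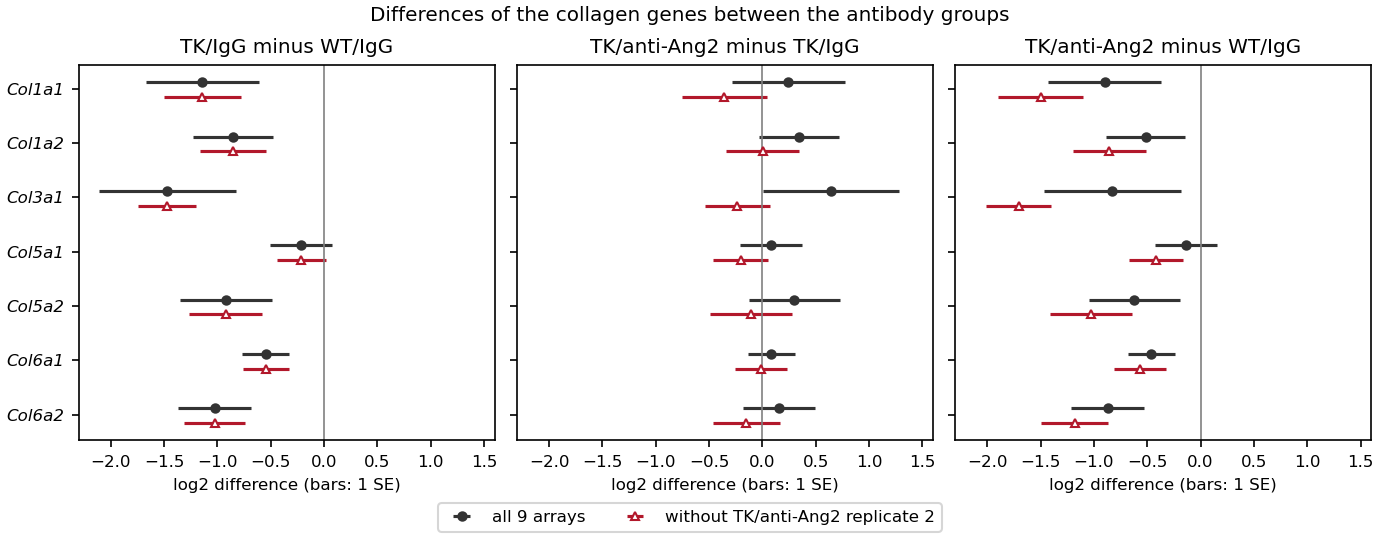
Log2 differences (x axis, bars 1 SE) of 7 collagen genes (y axis) in the 3 comparisons of the antibody groups, from all 9 arrays (filled circles) and without TK/anti-Ang2 replicate 2 (open triangles). In TK/anti-Ang2 minus TK/IgG the Col3a1 value stands at 0.64 with that array and at -0.23 without it, while TK/IgG minus WT/IgG keeps its values and its bars become shorter, for Col3a1 with an SE of 0.27 in place of 0.64.

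The genes around the collagens were taken from lists of their pathway. Of 27 genes of collagen assembly and processing, 18 were measured on the 9 arrays. In TK/IgG minus WT/IgG 0 of them passed the test, 12 had lower and 6 higher means, and the median difference was -0.08. The largest in size were P3h3 at -0.37, P3h4 at -0.33 and Plod1 at -0.31, which encode a prolyl hydroxylase family enzyme, a member of the same family without enzyme activity, and a lysyl hydroxylase. Serpinh1, the collagen chaperone gene, differed by 0.03 and P4hb, a prolyl hydroxylase subunit gene, by -0.08; both were singled out after their values were seen.

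Of 31 other collagen genes 16 were measured, and in TK/IgG minus WT/IgG 12 were lower, 4 higher and 0 past the test, with a median of -0.25. Col15a1, a basement membrane zone collagen gene, averaged 7.45 ± 0.15 in TK/anti-Ang2 tumours, 7.85 ± 0.25 in TK/IgG tumours and 8.52 ± 0.10 in WT/IgG tumours (SD, n = 3 each). Its difference was -0.67 ± 0.17 (SE) in TK/IgG minus WT/IgG, and -1.07 ± 0.17 in TK/anti-Ang2 minus WT/IgG, with limma's adjusted p at 0.999 and 0.511. The TK/anti-Ang2 minus WT/IgG difference was -1.06 when TK/anti-Ang2 replicate 2 was left out. Col24a1, a fibrillar collagen gene, differed by -0.76 ± 0.45 and Col17a1, a hemidesmosome collagen gene, by 0.66 ± 1.48 in TK/IgG minus WT/IgG.

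Of 17 genes of collagen receptors and fibril-binding matrix 14 were measured, with 9 lower, 5 higher and 0 past the test in TK/IgG minus WT/IgG, and a median of -0.11. Lum, a fibril-binding proteoglycan gene, differed by -1.15 ± 0.79 (SE), Bgn, another small proteoglycan gene, by -0.54 ± 0.39 and Itga2, a collagen-binding integrin gene, by -0.49 ± 0.51.

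Stromal markers were given beside the collagens. All 13 measured fibroblast markers of 14 had lower means in TK/IgG than in WT/IgG tumours, with a median difference of -0.53 and 0 past the test; Tcf21 was below the filter. Their mean log2 signal was 8.36 to 8.40 on the TK/IgG arrays and 8.86 to 9.48 on the WT/IgG arrays, without overlap. Of 12 pericyte and mural markers, 10 were measured, with 7 lower and 3 higher, a median of -0.18, and means of 6.69 to 7.18 on TK/IgG arrays and 6.81 to 7.16 on WT/IgG arrays, which overlapped; Rgs5 and Cnn1 were below the filter. The part of either cell type in the collagen values was not tested. Dcn and Lum stand in both the fibroblast and the fibril-binding lists, and Pdgfrb is among the fibroblast markers.

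Likeness was measured as Pearson's r, over the 9 arrays, with the mean of the 7 centred collagen signals. That mean was -0.29, 0.71 and -0.78 in TK/anti-Ang2 tumours, 0.04, -0.69 and -0.49 in TK/IgG tumours, and 0.76, 0.22 and 0.53 in WT/IgG tumours. The gene most like it was Mfap2, a microfibril-associated glycoprotein gene, with r = 0.972. Srpx2 (0.948), Cygb (0.946), Thbs2 (0.933), Twist2 (0.932), Bgn (0.928), Lrrc15 (0.916), Tshz3 (0.913), Ctsf (0.913) and C1qtnf1 (0.910) followed. Thbs2 encodes a matricellular thrombospondin, Twist2 a transcription factor of mesenchyme and Lrrc15 a surface protein of activated fibroblasts. Over 8 arrays without TK/anti-Ang2 replicate 2, Mfap2 had r = 0.987 and Srpx2 0.970, and 4 of the 10 genes were shared with the first list. Pdgfrb had r = 0.792 over 9 arrays and 0.851 over 8. These values describe arrays that share groups, labelling and normalisation.

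Mfap2 had differences of -1.26 ± 0.60 (SE) in TK/IgG minus WT/IgG, 0.63 in TK/anti-Ang2 minus TK/IgG and -0.62 in TK/anti-Ang2 minus WT/IgG. Without TK/anti-Ang2 replicate 2 the last 2 were -0.14 and -1.39. Mfap2 was chosen for its r over these same arrays, so its differences add nothing separate to those of the collagens. Among the collagens themselves, the 21 pairs had r of 0.556 to 0.965 over 9 arrays, with a median of 0.820, and of 0.454 to 0.974 over 8 arrays. The chains of type I had r = 0.897, those of type VI 0.900 and those of type V 0.728 over 9 arrays, and the neighbours Col3a1 and Col5a2 had 0.850.

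**Figure D3:**
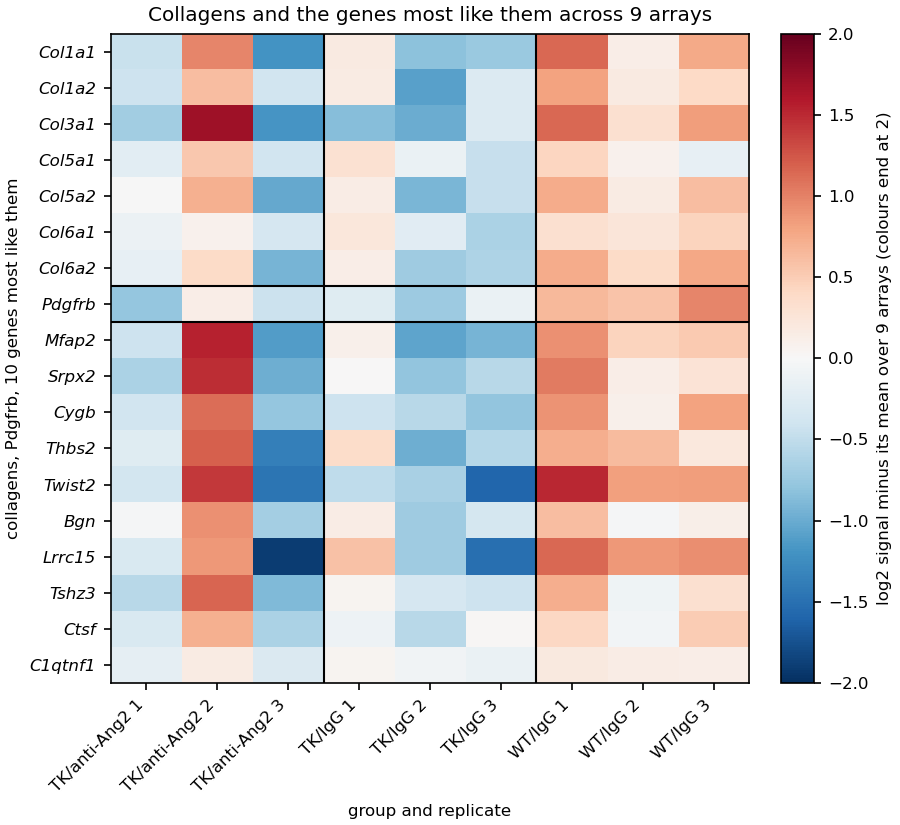
Log2 signal minus the gene's mean over 9 arrays (colour, ending at 2 in either direction) for 7 collagens, Pdgfrb and the 10 genes with the highest r (rows) on 9 arrays by group and replicate (columns). TK/anti-Ang2 replicate 2 is above the mean in all 18 rows, and the mean of the 7 collagens is 0.71 there, against -0.29 and -0.78 on its partners. The 10 genes were chosen for their r over these same arrays, so their rows follow the collagens by choice.

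The ablation pairs had 1 array per group, so there is no test, no replicate check, and a ratio of at least 2-fold was counted as past the limit. Counts and medians cover the genes detected on both arrays of a comparison, because a gene that passed the detection filter through 1 of them alone had to be higher there. Means of marker lists cover all measured genes of a list, so such genes enter the means. At the early stage the collagens of the ablation and its control were close. Col1a1 had a log2 signal of 9.63 in the early ablation and 9.45 in its control. For Col3a1 the early ablation had 7.94 and the control 8.10, and for Col5a1 the ablation had 10.87 and the control 10.57. These 3 fibrillar chains were thus within 0.30 of their control on the log2 scale. The beaded microfibril chain Col6a1 had 11.50 in the early ablation and 11.25 in its control, and Col6a2 had 8.68 in the early ablation and 8.76 in its control. Col1a2 was not above background in the early ablation, at 6.35, against 6.51 in its control. It passed the detection filter through the controls alone, so its bound of 1.11-fold fixes no difference. Col5a2 was not above background on either array, at 6.29 in the early ablation and 6.26 in its control.

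Of the 5 collagens detected on both arrays, 0 were at least 2-fold lower and 0 at least 2-fold higher, against 0.159% and 0.612% of 8175 genes. Their log2 ratios lay between -0.17 and 0.30 with a median of 0.18, and 2 of 5 were below 0 (1 of 5 under median scaling, where Col6a2 turned), against 53.5% of genes. Pdgfrb had 7.03 in the early ablation and 6.97 in its control. Skeletal muscle markers, 9 of 10 measured, had a mean of 9.38 in the early ablation and 6.56 in its control. Only 2 of these 9 were detected on both arrays, and these 2 were higher. The 13 fibroblast markers measured had 8.50 in the early ablation and 8.31 in its control. Of the 12 fibroblast markers detected on both arrays 7 were higher and 5 lower, with a median log2 ratio of 0.03. Pericyte and mural markers, 10 of 12 measured, had 7.81 in the early ablation and 7.46 in its control. Of the 9 detected on both arrays 5 were higher and 4 lower, with a median log2 ratio of 0.03. Des, singled out after its value was seen, was at 3.23. The 6 leukocyte markers measured had 9.06 in the early ablation and 8.43 in its control. Of the 5 detected on both arrays 3 were higher and 2 lower, with a median of 0.16.

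The late pair differed. Col1a1 had a log2 signal of 8.22 in the late ablation and 11.41 in its control, a ratio of -3.19, or 9.13-fold lower. Col6a2 had 7.03 in the late ablation and 9.27 in its control, 4.72-fold lower. Col3a1 had 6.91 in the late ablation and 8.22 in its control, 2.49-fold lower. These genes come from types I, III and VI. Col6a1 had 10.57 in the late ablation and 11.68 in its control, 2.16-fold lower, with -0.84 for its other probe. Col5a1 had 10.30 in the late ablation and 10.95 in its control, 1.56-fold lower. Col1a2, not above background in the late ablation, had 6.20 there and 7.07 in the control, which was at least 1.48-fold higher. Col5a2 had 6.01, not above background, in the late ablation and 6.51 in the control, and its bound, 0.0051 on the log2 scale, fixes no difference. Col5a2 passed the detection filter through the late control alone, and Col1a2 through the 2 controls alone, so both had to be higher there and neither is counted.

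Of the 5 collagens detected on both arrays 4 were at least 2-fold lower, Col1a1, Col3a1, Col6a1 and Col6a2, against 0.694% of 7345 genes, and with the mean over probes 3, where Col6a1 was at -0.97. All 5 were lower under each of the scalings tried, against 48.8% of genes. The median log2 ratio of the 5 was -1.32, against 0.0064 over these genes. Median scaling moved the median of these genes to -0.26, with 85.4% of them lower, and the collagens' median was -1.25 relative to that. Pdgfrb had 6.67 in the late ablation and 7.45 in its control, a log2 ratio of -0.78.

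Other lists are given for the late pair beside the share of all genes. Of 7345 genes detected on both arrays, 48.8% were lower and 0.694% at least 2-fold lower. Of 9 fibroblast markers detected on both arrays 7 were lower, 3 of them at least 2-fold, and the 13 measured had means of 7.72 in the late ablation and 8.50 in its control. The pericyte and mural list was mixed. Of 6 such markers detected on both arrays 4 were lower and 2 higher, with a median log2 ratio of -0.26. The 10 measured had means of 7.19 in the late ablation and 7.53 in its control. All 6 endothelial markers detected on both arrays were lower, and the 11 measured had means of 7.07 in the late ablation and 7.62 in its control. The lists of other cell types did not all run lower. Mammary epithelial markers, 7 measured, had means of 10.80 in the late ablation and 10.56 in its control, and 6 leukocyte markers had 8.438 in the late ablation and 7.997 in its control. Of the 5 leukocyte markers detected on both arrays 3 were higher and 2 lower, with a median log2 ratio of 0.02. Skeletal muscle markers had means of 7.21 in the late ablation and 8.05 in its control. Of the 5 detected on both arrays 4 were lower and 1 higher. The 6 mast cell markers measured had means of 7.46 in the late ablation and 6.34 in its control. Only 1 of these 6 was detected on both arrays, so their means fix no direction. The part of these cell types in the collagen ratios was not tested. Of 15 genes of collagen assembly and processing detected on both arrays 12 were lower, with a median of -0.20, and Sparc, a collagen-binding matricellular gene singled out after its value was seen, was at -1.12. Of 8 other collagens 4 were lower with a median of -0.03, and Col15a1 was at -1.29. Of 8 receptor and fibril-binding genes 5 were lower with a median of -0.17, among them Dcn at -1.22 and Bgn at -1.14. Dcn was singled out after its value was seen, and in the early pair it was at 1.27.

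The late control over the early control compares the stages between the control arrays, whose hosts are not settled, and shares its arrays with the ratios above. All 6 collagens detected on both arrays were higher at the late stage, against 47.7% of 7541 genes, with a median log2 ratio of 0.48. Relative to the median of these genes it was 0.49, and 0.37 under median scaling. Col1a1, at 11.41 in the late control and 9.45 in the early control, was 3.88-fold higher and was the 1 gene of 6 past 2-fold, against 0.902% of these genes. The other 5 ratios ranged from 0.12 for Col3a1 to 0.55 for Col1a2. Col5a2 was not above background in the early control. It passed the detection filter through the late control alone, where detection was set by signal rank, so its bound of 1.08-fold fixes no difference.

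Under ablation the order of the stages was the other way round. The 5 collagens detected on both arrays had lower values in the late ablation than in the early ablation, against 47.2% of 7493 genes, with a median of -1.03. At least 2-fold lower were 3 of the 5, Col6a2 at -1.65, Col1a1 at -1.42 and Col3a1 at -1.03, against 1.68% of these genes. Col6a1 was at -0.93, with -0.20 for its other probe, and Col5a1 was at -0.56, while Col1a2 and Col5a2 were not above background on either array. The median of the 5 was -1.58 with the authors' processed values. Relative to the median of the genes detected on both arrays it was -1.06, and -1.17 under median scaling, with 3 of the 5 past 2-fold on that relative scale in both.

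**Figure D4:**
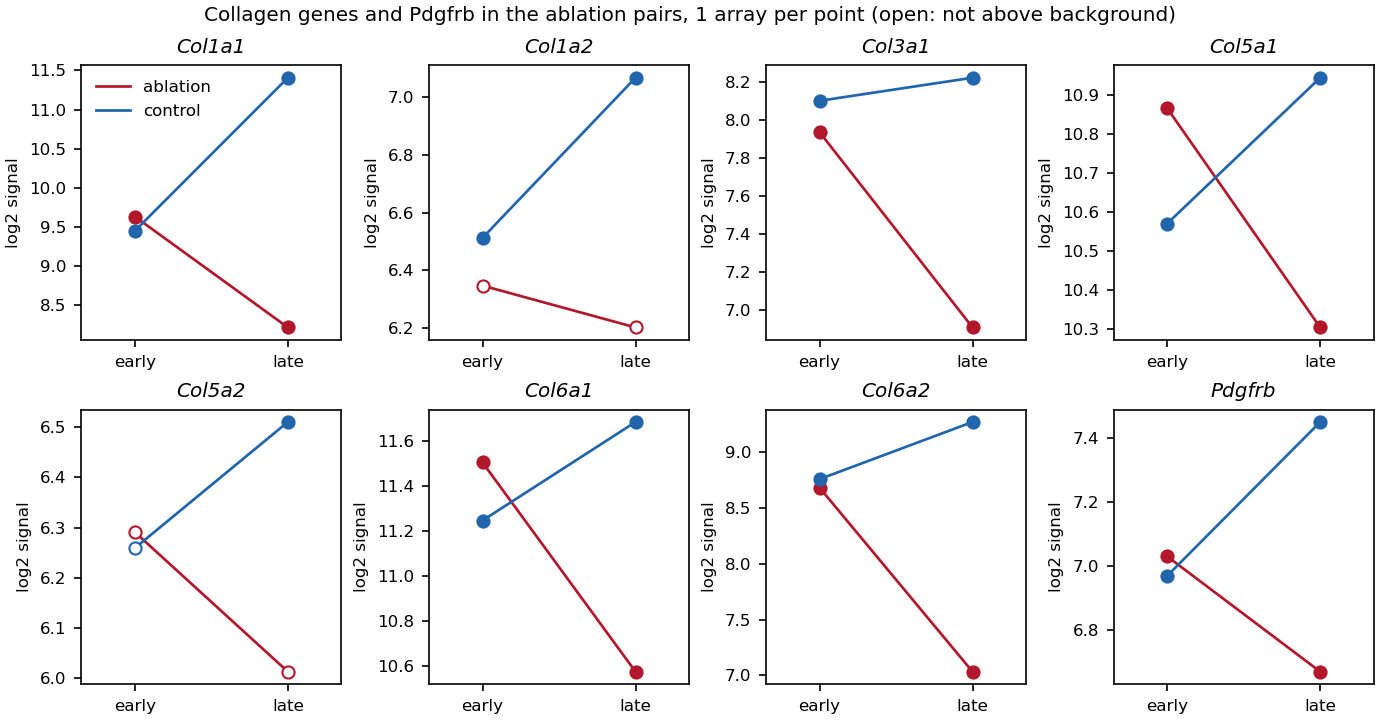
Log2 probe signal (y axis, a separate scale per panel) of 7 collagen genes and Pdgfrb in early and late tumours (x axis), with pericyte ablation in red and controls in blue, 1 array per point and open points where the probe was not above background. Col1a1 stands at 8.22 in the late ablation and 11.41 in the late control, but at 9.63 in the early ablation and 9.45 in the early control.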

How the data were processed

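Biotinylated cRNA was made from total tumour RNA for Illumina arrays, per the labels' protocols, and titles gave each sample its group. The deposited tables hold, per the file headers, a probe intensity that is neither normalised nor background-subtracted, with 1 detection p-value beside it. The submitters' processing notes name GenomeStudio, without a version. Within each array the authors' processed intensity was linear in the deposited one (largest residual 0.109), with medians of 12.6 to 28.1. The table of the 9 arrays has 6 further columns, of 3 arrays matched to no sample, which were left out. The late control's detection column repeats its signal, so its probes counted as detected within the top 42.6% of signals, the smallest detected share of the other 3 arrays.

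The 9 arrays were corrected and quantile-normalised with limma's neqc (offset 16), and probes with a detection p under 0.05 on at least 3 arrays were kept. The 4 arrays, for which neqc had been planned, were corrected with normexp (offset 50) and quantile-normalised, because of that column, and probes detected on at least 1 array were kept. A probe not above background was given as a bound, from the lowest detected signal on its array or the probe's own where that was higher. The platform annotation gave a single symbol to 34885 of 45281 probes on the larger platform, several to 18 and none to 10378, and on the smaller a single symbol to 23978 of 25697, several to 0 and none to 1719. Gene identifiers matched RefSeq symbols of GRCm38.p6 for 34807 and 23962 probes. Each gene took its probe with the highest mean log2 signal, and Col5a2 has different probes on the 2 platforms. Groups were compared with limma 3.58.1 in R 4.3.3 (lmFit and eBayes, Benjamini-Hochberg adjustment over 11057 genes, threshold 0.05), and single genes by two-sided exact permutation. The fit was tested on simulated data. No batch was modelled, since the labels used here name none.

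The collagens and the gene lists were chosen with earlier results of these data known. The text names the collagens and Pdgfrb, up to 3 genes of each pathway list with the largest difference in size in TK/IgG minus WT/IgG, and the 10 genes most like the collagens; others are said to be singled out after their values were seen. Promoter sequences, from RefSeq GRCm38.p6, had entries for 5 of the 7 measured genes, and Col1a1 and Col5a2 are named only.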

Additional observations from a re-analysis of the deposited data

Results flagged for a closer look

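Of the 5 collagens detected on all 4 arrays, 3 had a log2 ratio of ablation over control above 0 in the early pair and below 0 in the late pair, and so did Pdgfrb. Of the genes detected on both arrays of a pair, 53.5% were lower in the early pair and 48.8% in the late pair. The share of all genes with both directions was not computed. The late ratio minus the early ratio was -3.37 for Col1a1 (late -3.19, early 0.18), -1.37 for Col6a1 (late -1.11, early 0.26), -0.94 for Col5a1 (late -0.64, early 0.30) and -0.84 for Pdgfrb (late -0.78, early 0.06). The genes were flagged for opposite directions in the pairs, so their number is no test. Each ratio compares 1 array with 1 array, and the differences between the pairs were not tested. The groups of 3 arrays are too small for the outlier check used here.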

How the results depend on the processing

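On the 9 arrays 20 alternative settings were run and on the 4 arrays 4. The median difference of the 7 collagens in TK/IgG minus WT/IgG stayed below 0, at -1.07 to -0.52 over the settings that kept every array, and at -1.20 (without TK/IgG replicate 1) to -0.67 (without TK/IgG replicate 2) when 1 array was left out. In TK/anti-Ang2 minus TK/IgG leaving out 1 array gave a median of -0.15 (without TK/anti-Ang2 replicate 2) to 0.56 (without TK/IgG replicate 1), and for Col3a1 -0.23 to 1.20, with -0.23 without TK/anti-Ang2 replicate 2. Besides the setting without TK/anti-Ang2 replicate 2, values there also went below 0 for Col5a1 (-0.02 with array weights, -0.10 without TK/IgG replicate 3), Col6a1 (-0.13 without TK/IgG replicate 3), Col6a2 (-0.06 with the mean over probes) and Col1a2 (-0.0066 without TK/IgG replicate 2), each within 1 standard error of 0. In TK/anti-Ang2 minus WT/IgG the median was -1.03 (without TK/anti-Ang2 replicate 2) to -0.35 (without TK/anti-Ang2 replicate 3), where Col5a1 was at 0.05. No gene passed the threshold in any comparison by limma with all arrays (325, 369 and 817 at an unadjusted p under 0.05), nor with any 1 array left out (0 to 0), and in TK/anti-Ang2 minus WT/IgG 1 gene did, Slc24a3, when detection on all 9 arrays was required and when arrays were weighted. Replicate numbers did not pair the samples (9 same-numbered pairs of arrays had correlations of -0.16 to 0.39, 18 others -0.32 to 0.26). With the replicate block 0 genes passed in each comparison, and the collagens' median stayed at -0.92, 0.24 and -0.62. The late pair's median over the 5 collagens detected on both arrays was -1.32, and -1.94 with the authors' processed values. The cause was not tested. In late over early ablation the median of the 5, relative to genes detected on both arrays, was -1.06, also with the mean over probes. Col6a1 ranged there from -1.47 to -0.57 over the alternative settings. In late over early control the relative median of 6 collagens was 0.49, and 0.37 under median scaling. Median scaling moved the median of all genes to -0.10 in both comparisons with WT/IgG and to -0.25 in late over early ablation. Of the other recomputed values of single collagens, 520 were counted as the same. In the pairs 8 moved by more than the gene's residual SD on the 9 arrays. On the 9 arrays the same meant that the call at an adjusted p of 0.05 held and no difference beyond 1 standard error changed sign. No collagen was called in any setting, so a change in size could not be counted there. Signal over background limits Col1a2 and Col5a2 in the pairs, and 1 array per group limits every ratio there.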
